A study of Mus musculus with 6 samples.

Results

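The data are RNA-seq counts of 9 genes in ILC2s, the type 2 innate lymphoid cells (ILCs). The list was drawn up for regulators and cytokines of other ILC and T helper fates, although Maf also acts in the type 2 fate. The genes were Tbx21, Eomes, Foxp3, Bcl6, Prdm1 and Maf, which encode regulators of transcription, and the cytokine genes Ifng, Il17a and Il22. They were listed by gene name, with no threshold on their values, and all 9 were found among the 53278 genes of the deposited table. The ILC2s were sorted from visceral adipose tissue of C57BL/6 mice aged 8 weeks, which had received 3 intraperitoneal injections of 1 µg IL-33 each. All cells were cultured with IL-2 and IL-7 (10 ng/mL each) for 48 h according to the labels (the study's results text and a figure legend give a shorter time), either with DTA-1 (5 µg/mL), an agonistic antibody to the costimulatory receptor GITR, or with its isotype control, called the control from here on. Each group had 3 libraries. The table names the isotype control columns as PBS, while their treatment label is isotype control. Both groups thus came from IL-33-injected mice, and no group without IL-33 was analysed here. The sort took cells without classical lineage markers that carried CD45, ST2 and CD117. The number of mice behind a library is not given in the sources used here, so the errors measure the spread between libraries, which may be technical.

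As background, ILCs are tissue lymphocytes without rearranged antigen receptors, and their subsets mirror the T helper subsets. T-bet (Tbx21) drives the ILC1 and Th1 programmes, whose main cytokine is IFN-γ (Ifng), and Eomes acts with it in natural killer (NK) cells. ILC3s and Th17 cells make IL-17A and IL-22. GATA3 and RORα set the ILC2 programme, and Foxp3 sets that of regulatory T cells. Bcl6 and Blimp-1 (Prdm1) repress each other and oppose each other in follicular helper and effector T cells. The bZIP factor c-Maf (Maf) is used in several fates, the Th2 fate among them. It acts together with Blimp-1 on Il10 and on genes of co-inhibitory receptors.

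The promoters of 2 cytokine genes that had no counts here (Ifng and Il17a) and of 2 regulators detected at a low level (Foxp3 and Bcl6) are shown so that their start regions can be set side by side. Each sequence holds 300 bases around a RefSeq gene start (GRCm38.p6), most of them upstream, 5′ to 3′ on the strand of the gene. Bcl6 lies on the minus strand and the other 3 genes lie on the plus strand. Such sequences were matched by symbol for 8 of the 9 genes, with a second start for Foxp3 and for Bcl6. Capitals mark the TATA box letters TATAAA and the STAT letters TTCNNNGAA, both searched on either strand.
Ifng, chr10:118440796-118441095: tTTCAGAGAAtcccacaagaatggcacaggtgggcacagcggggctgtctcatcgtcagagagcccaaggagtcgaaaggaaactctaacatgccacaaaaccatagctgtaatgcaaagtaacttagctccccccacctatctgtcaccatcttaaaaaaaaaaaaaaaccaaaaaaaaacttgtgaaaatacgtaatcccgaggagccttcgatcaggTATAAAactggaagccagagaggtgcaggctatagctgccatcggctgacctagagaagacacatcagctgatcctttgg
Il17a, chr1:20730655-20730954: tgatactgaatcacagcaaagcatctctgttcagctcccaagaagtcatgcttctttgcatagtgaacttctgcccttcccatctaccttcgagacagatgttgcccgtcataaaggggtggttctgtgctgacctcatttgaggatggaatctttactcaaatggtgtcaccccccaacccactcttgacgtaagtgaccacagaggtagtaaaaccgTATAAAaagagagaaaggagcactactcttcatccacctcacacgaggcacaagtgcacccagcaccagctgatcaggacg
Foxp3, first start, chrX:7579426-7579725: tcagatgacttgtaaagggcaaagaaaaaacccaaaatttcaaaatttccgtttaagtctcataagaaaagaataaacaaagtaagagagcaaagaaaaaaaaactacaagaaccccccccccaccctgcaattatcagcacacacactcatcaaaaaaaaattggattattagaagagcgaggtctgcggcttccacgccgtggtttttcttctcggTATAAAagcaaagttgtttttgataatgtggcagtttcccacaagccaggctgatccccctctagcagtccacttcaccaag
Bcl6, second start, chr16:23981234-23981533: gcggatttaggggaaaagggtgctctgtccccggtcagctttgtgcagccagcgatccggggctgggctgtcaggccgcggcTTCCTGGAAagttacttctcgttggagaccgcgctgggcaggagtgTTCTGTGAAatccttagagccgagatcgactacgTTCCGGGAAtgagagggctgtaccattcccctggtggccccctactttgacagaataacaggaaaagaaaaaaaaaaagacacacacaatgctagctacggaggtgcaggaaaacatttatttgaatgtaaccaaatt
TATAAA lies 30 bases before the start in Ifng, 31 bases before it in Il17a, 32 bases before the first start of Foxp3 and 170 bases before that of Il22. It was found in 13.6% of the 32851 promoters of the same length. The Ifng window also holds TTCNNNGAA near its far end. The second Bcl6 promoter holds it at 168, 122 and 88 bases before the start, and the first holds it once. The window of the second Foxp3 start has no TATAAA but holds TTCNNNGAA at 139 bases before the start. These letters were in 8.30% of all promoters. The Tbx21, Eomes and Prdm1 windows held neither motif. The number of CG dinucleotides was 7 in Ifng, 6 in Il17a and 4 in Il22. Among the regulators it was 21 in Tbx21, 10 in Eomes, 20 in Prdm1, 31 and 14 in the first and second Bcl6 windows, and 6 and 8 in those of Foxp3. The median over all promoters was 7, so the regulators lay on both sides of it. A match of letters is a description and not evidence of binding.

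The libraries held 30569351 to 35131329 counts, and normalized counts are CPM (counts scaled to library size) after TMM scaling. Where no count was seen, as many as 3 remain possible (0.0854 to 0.0981 CPM at these depths, for counting error only). The library labelled DTA-1 replicate 1 stood apart from its group. Its chi-square distance per degree of freedom was 10.1 to 11.9 to the control libraries, but 29.0 and 30.5 to the other DTA-1 libraries. The change of each detected fate regulator is therefore given with and without it. This library was singled out from these same values for lying near the control libraries. Leaving it out can by itself widen the difference between the groups and narrow the errors. Intervals and calls without it are therefore a description only. Of the 22 genes on a list of ILC2 identity, 21 were tested. Gata3 had 1698 ± 15.8 normalized counts in control and 1603 ± 76.9 after DTA-1 (SD, n = 3 each). Rora, at 412 ± 8.80 and 416 ± 9.77, and Id2, at 1787 ± 87.7 and 1964 ± 186 (SD, n = 3 each), were well above the filter too. Ptgdr2, which encodes the prostaglandin receptor CRTH2, had 5 counts in 1 library and 0 in the others.

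Tbx21, Eomes, Ifng, Il17a and Il22 had few or no counts, and the filter on low counts removed all of them. Tbx21 (chromosome 11, 97098071 to 97115331) had 0, 3 and 0 counts in the control libraries, in the order of their numbers, and 15, 0 and 0 in those of DTA-1. The T-bet transcript was thus seen in 2 of 6 libraries, and nearly all of its counts came from DTA-1 replicate 1. As pooled counts the ratio of DTA-1 to control was 5.48 (95% counting interval 1.55 to 29.5). This interval covers counting error only and not the spread between libraries, so it does not show a difference between the groups. Without DTA-1 replicate 1 the DTA-1 group held 0 counts. In the same library Cxcr3, a chemokine receptor gene and target of T-bet, had 10 counts, against 0 in the control libraries and 0 and 4 in the other DTA-1 libraries. Nkg7, a granule gene of cytotoxic lymphocytes, had 33 counts there and 2 to 18 in the other 5 libraries. Their part in the Tbx21 counts was not tested. Cxcr3 and Nkg7 were chosen for description after their values were seen, and other genes of the same programmes did not follow them. Prf1 had 3 counts in DTA-1 replicate 1 and 10 to 49 in the other libraries, Hlx had 24 there and 30 to 49 elsewhere, Ccl5 had 21 there and 16 to 42 elsewhere, and Gzma had 43 there and 38 to 112 elsewhere. Ncr1, Klrb1c, Klrd1 and Xcl1 were at 0 in all 6 libraries.

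Eomes (chromosome 9, 118478212 to 118486132) had 0, 2 and 4 counts in control and 0, 2 and 0 in DTA-1. The groups overlapped, and the pooled ratio of 0.365 had a counting interval of 0.0361 to 2.04. The antisense gene Gm33460 shares 2.84% of the Eomes exon bases and had 0 to 3 counts per library. Ifng (chromosome 10, 118441046 to 118445892), the effector cytokine of ILC1s, had 0 counts in all 6 libraries. The same was true of Il17a (chromosome 1, 20730905 to 20734496), the defining cytokine of Th17 cells and of part of the ILC3s. Il22 (chromosome 10, 118204942 to 118210047), which acts on epithelial cells, had 2 counts in control replicate 1, 2 counts in DTA-1 replicate 3 and 0 in the others. Il22 has a close copy, Iltifb, which shares 41.0% of its 50-base transcript windows, so a few reads could have been split between them. Iltifb itself had 0 counts after rounding in every library. No fold change is given for Il22, Ifng and Il17a, since both groups lay at or under 3 counts. The plot of expected counts shows 1 point far above the rest.

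**Figure D1:**
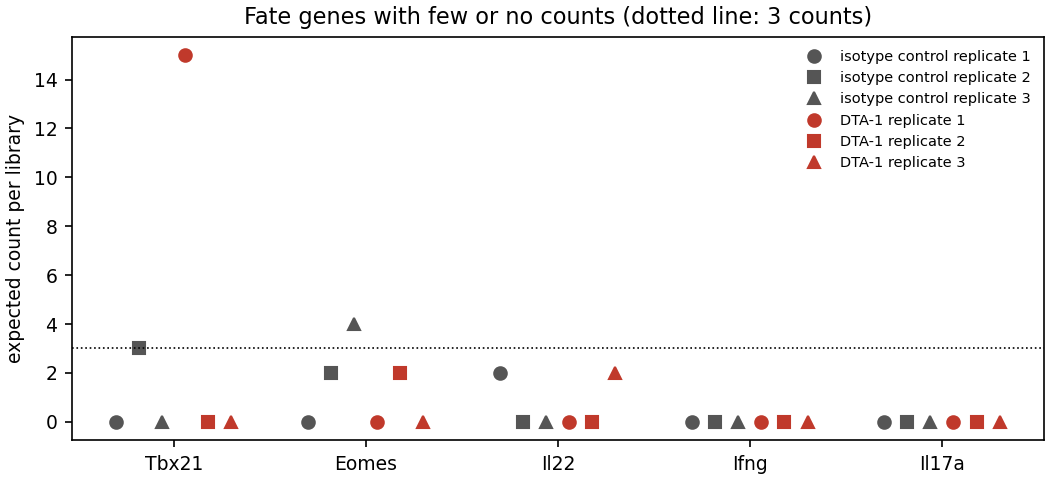
Expected counts per library (y axis) of Tbx21, Eomes, Il22, Ifng and Il17a (x axis), with 1 point per library (grey: control, red: DTA-1; circle, square and triangle: replicates 1, 2 and 3). The dotted line marks 3 counts. Only Tbx21 in DTA-1 replicate 1 (15 counts) and Eomes in control replicate 3 (4 counts) lie above it, and Ifng and Il17a lie at 0 in all 6 libraries.

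The other 4 genes, Maf, Prdm1, Foxp3 and Bcl6, were detected in all 6 libraries and passed the filter that left 14361 genes for the test. Levels between genes were compared per kilobase of merged exons (GENCODE release M21). Maf had a median of 8.46 normalized counts per kb over the 6 libraries (range 6.52 to 8.89) and Prdm1 of 7.41 (6.74 to 8.35). These levels overlapped, with Maf above Prdm1 in 3 of 6 libraries. Their means lay above 60.5% and 59.5% of the tested genes. Foxp3 had 0.531 per kb (0.259 to 0.642), and in all 6 libraries Prdm1 was 10.5 to 28.4 times higher per kb. Bcl6 was lowest at 0.312 per kb (0.177 to 0.413). Foxp3 was above Bcl6 in 6 of 6 libraries, by 1.32 to 2.32 times per kb, although their ranges over libraries overlapped. The means of Foxp3 and Bcl6 lay above 17.1% and 11.2% of the tested genes. On the same scale the ILC2 regulators Rora and Gata3 had medians of 31.9 and 423 normalized counts per kb, and the regulator Id2 had 753.

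**Figure D2:**
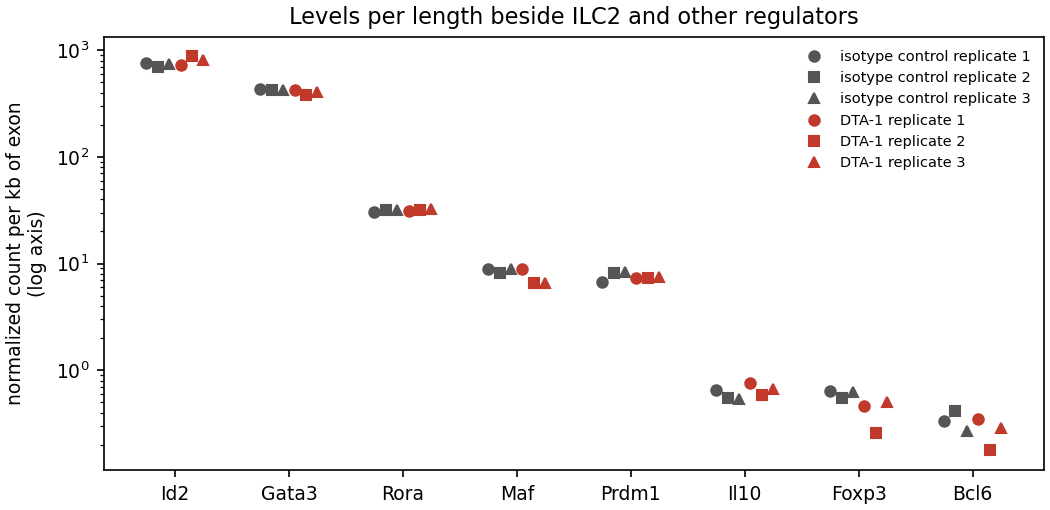
Normalized counts per kb of merged exons in each library, on a log axis, for the detected fate regulators beside Id2, the ILC2 regulators Gata3 and Rora and the cytokine gene Il10 (grey: control, red: DTA-1). Maf and Prdm1 lie between 6.52 and 8.89 per kb, while Foxp3, Bcl6 and Il10 lie at or below 0.765 per kb.

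The effect of DTA-1 (as a log2 fold change of DTA-1 over control, called the log2 change, with its standard error, SE) was tested gene by gene with the quasi-likelihood F test of edgeR, where a call needs both a fold change of 1.5 or more and an adjusted p below 0.05. None of the 4 genes was called by edgeR (0, with 0 at an unadjusted p under 0.05). Among all 14361 tested genes 0% were called. An unadjusted p under 0.05 was reached by 7.22% of them, and by 3.11% with a lower level in DTA-1. It was reached together with a 1.5-fold change in either direction by 2.35%. DESeq2's Wald test called 0.152% of 16489 genes and limma 0%, and neither called any of the 4. All 4 had a fitted log2 change below 0, as did 51.9% of the tested genes. The median was −0.27 over the 4 genes and −0.01 over all genes tested. As in any bulk sample, fewer cells that express a gene and less RNA per cell cannot be told apart.

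Maf (chromosome 8, 115682942 to 115707794) had 73.3, 66.8 and 72.6 normalized counts in the control libraries, in the order of their numbers, and 72.6, 54.5 and 53.7 in those of DTA-1. DTA-1 replicates 2 and 3 were below every control library, and DTA-1 replicate 1 was within the control range. The log2 change was −0.23 (SE 0.12, 95% confidence interval −0.49 to 0.02, edgeR adjusted p = 0.717), so the interval lay short of a 1.5-fold decrease. Without DTA-1 replicate 1 it was −0.39 (SE 0.08, interval −0.58 to −0.20). The edgeR adjusted p was then 0.0588, while all alternatives spanned 0.0588 to 0.999. That comparison called 0.744% of 14911 genes (0.161% lower in DTA-1) and did not call Maf. An adjusted p under 0.05 was reached there by 1.7% of genes, and an unadjusted p under 0.05 with a lower level by 6.53%. Gm15655, the antisense neighbour of Maf, had less than 1 count in each library.

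Prdm1 (chromosome 10, 44437177 to 44528501) had 37.6, 45.6 and 46.6 normalized counts in control and 41.2, 41.1 and 41.5 in DTA-1. All DTA-1 libraries lay within the control range. The log2 change was −0.07 (SE 0.10, 95% confidence interval −0.29 to 0.16, edgeR adjusted p = 0.919) and likewise −0.07 without DTA-1 replicate 1. The interval excluded a 1.5-fold change in either direction.

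Bcl6 (chromosome 16, 23965052 to 23988852), the repressor that Blimp-1 opposes, had 2.23, 2.77 and 1.79 normalized counts in control and 2.36, 1.19 and 1.94 in DTA-1. These came from 37 to 97 counts per library. The groups overlapped, and the lowest value was that of DTA-1 replicate 2. The log2 change of Bcl6 was −0.30 (SE 0.35, 95% confidence interval −1.08 to 0.47, edgeR adjusted p = 0.890). It was −0.53 without DTA-1 replicate 1 and −0.07 without DTA-1 replicate 2. The ratio of Prdm1 to Bcl6 per kb was 20.2, 19.8 and 31.3 in control and 20.9, 41.6 and 25.6 in DTA-1, so that it overlapped between the groups as well.

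Foxp3 (chromosome X, 7579676 to 7595243) had 2.94, 2.54 and 2.83 normalized counts in control and 2.13, 1.19 and 2.32 in DTA-1. Every DTA-1 library lay below every control library. This was so for 6.03% of the tested genes, and Foxp3 was the 1 gene of the 4 with such a gap. The log2 change was −0.56 (SE 0.33, 95% confidence interval −1.28 to 0.16, edgeR adjusted p = 0.744), which is not distinguishable from 0. Without DTA-1 replicate 1 it was −0.66 (edgeR adjusted p = 0.475, where all alternatives spanned 0.475 to 0.999), and without DTA-1 replicate 2, which had the lowest value, it was −0.31. The dot plot of normalized counts shows the gap for Foxp3 and the overlap for the other genes.

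**Figure D3:**
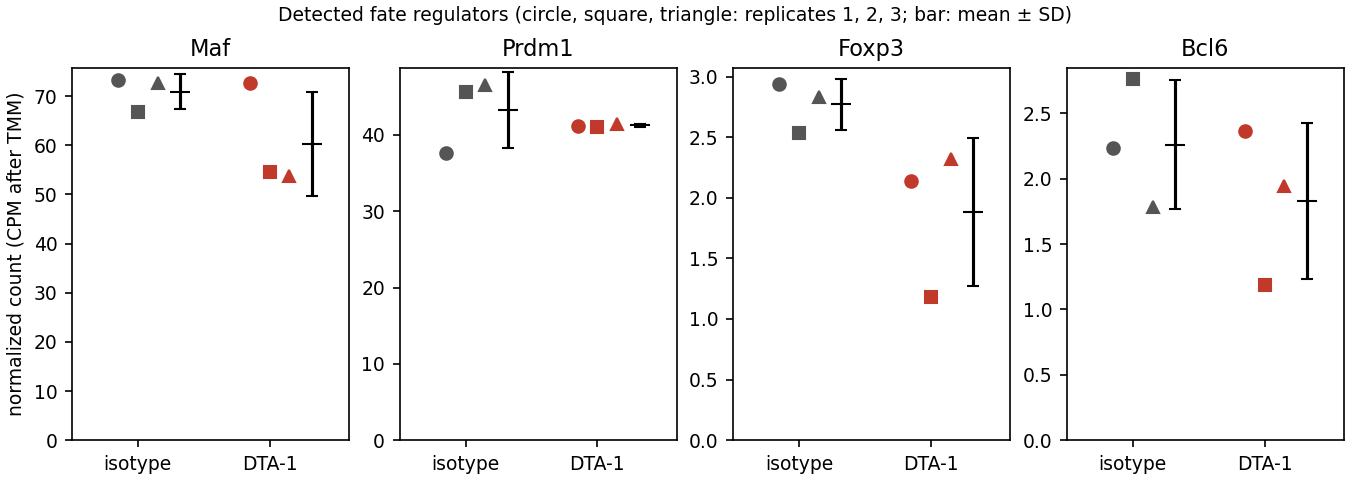
Normalized counts (CPM after TMM, y axis from 0) of Maf, Prdm1, Foxp3 and Bcl6 in each library of control (grey) and DTA-1 (red). Circle, square and triangle are replicates 1, 2 and 3 and the bar is the mean ± SD. Foxp3 is lower in all 3 DTA-1 libraries, Maf is lower in DTA-1 replicates 2 and 3 (54.5 and 53.7), and the groups overlap for Prdm1 and Bcl6.

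The Foxp3 value is uncertain because the locus is shared. Of its 4577 exon bases in GENCODE release M21, 31.5% are also exon bases of Ccdc22, Flicr or Gm36995. The expected counts of Foxp3 (104, 88.5 and 99.8 in control and 66.4, 36.6 and 73.7 in DTA-1) were not whole. Ccdc22, a gene of endosomal sorting on the opposite strand, had 2279 to 2655 counts in control and 1800 to 2202 in DTA-1. The log2 change of Ccdc22 was −0.10 (SE 0.10, edgeR adjusted p = 0.865), and its lowest normalized count, like that of Foxp3, was in DTA-1 replicate 2. Flicr, a noncoding RNA that overlaps the Foxp3 start, had 66.7 to 173 counts, and Gm36995, on the opposite strand, had 259 to 555. Their log2 changes were −0.14 (SE 0.36) and −0.39 (SE 0.19, edgeR adjusted p = 0.717). Whether strand was used in counting is not given in the sources used here, so reads on the exon bases that Foxp3 shares with its opposite-strand partners (12.9% with Ccdc22 and 8.15% with Gm36995) cannot be told apart. Flicr lies on the same strand as Foxp3 and shares 18.6% of the Foxp3 exon bases, so strand could not separate those reads.

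T cells were considered through general T cell markers, and a list of regulatory T cell genes is described further on. Cd4 had 1 to 31 counts per library, Trac, the T cell receptor alpha constant gene, had 12 to 56, and Cd8a had 0 in all 6. Cd3g, a CD3 chain gene, had 44.3 ± 7.05 normalized counts in control and 43.8 ± 2.03 in DTA-1, and Trbc2, a T cell receptor beta constant gene, had 182 ± 14.0 and 162 ± 26.3 (SD, n = 3 each). The 12 T cell markers summed to 253 to 295 normalized counts in control and 225 to 285 in DTA-1. Of these, 9 were tested, 1 was higher, 8 were lower and 0 were called (median log2 change −0.12). Their part in the Foxp3 values was not tested.

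**Figure D4:**
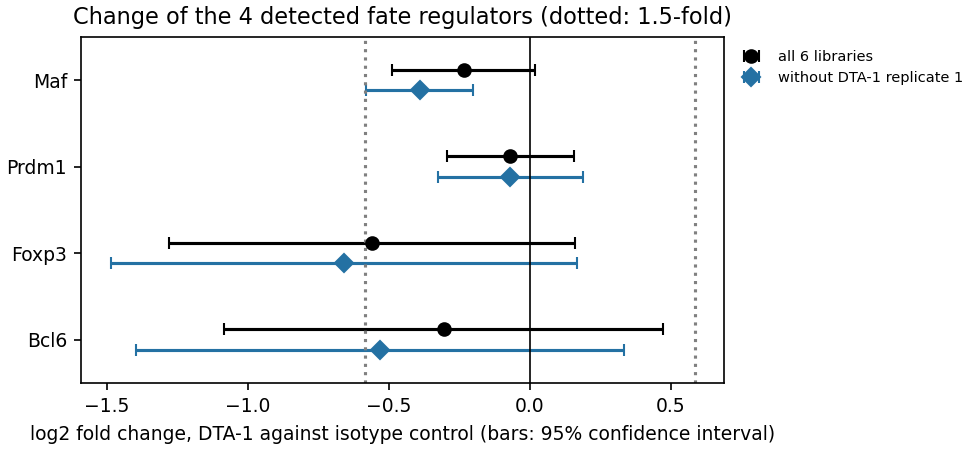
Log2 change of DTA-1 against control (x axis) with its 95% confidence interval for Maf, Prdm1, Foxp3 and Bcl6, with all 6 libraries (black circles) and without DTA-1 replicate 1 (blue diamonds). Dotted lines mark 1.5-fold. The interval excludes 0 only for Maf without that library (−0.58 to −0.20), and the widest intervals are those of Foxp3 and Bcl6. The library left out was singled out from these same data, which favours a difference.

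Other genes of each programme were described from lists, without a test of the list. For ILC1 and Th1 cells 11 of 18 genes were tested, 7 higher and 4 lower, with 0 called and a median log2 change of 0.15. Il12rb1, the receptor chain shared by IL-12 and IL-23, had 321 ± 7.32 normalized counts in control and 357 ± 33.1 with DTA-1 (SD, n = 3 each), a log2 change of 0.15 (SE 0.07, edgeR adjusted p = 0.702). Il12rb2, Ncr1, Klrb1c, Klrd1 and Xcl1 were at 0 in all 6 libraries.

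In the ILC3 and Th17 list 9 of 14 genes were tested, 4 higher and 5 lower, with 0 called and a median of −0.00. Stat3, the signal transducer of IL-6 and IL-23, had 449.8 ± 8.50 and 449.4 ± 9.65 normalized counts, and Tox2, a nuclear factor of the TOX family, had 105 ± 6.31 and 121 ± 14.4 (SD, n = 3 each). Il23r, Il17f and Il22ra2 were at 0 in all libraries. Without DTA-1 replicate 1 the lymphotoxin gene Lta was the 1 gene of 10 tested in the list that was called (0.744% of all genes in that comparison), with a log2 change of 1.80, and it is named here after its values were seen.

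For regulatory T cells all 12 genes were tested, 7 higher and 5 lower, with 0 called and a median of 0.12. Ebi3, a subunit gene of IL-27 and IL-35, had 59.3 ± 2.81 normalized counts in control and 75.7 ± 17.9 after DTA-1 (SD, n = 3 each), a log2 change of 0.35 (SE 0.15, edgeR adjusted p = 0.657). Foxo1, which restrains effector differentiation, had 42.3 ± 3.56 and 42.1 ± 3.10. In the follicular helper list 4 of 11 genes were tested and all 4 were lower, with 0 called and a median of −0.18. Id3, an inhibitor of E proteins, had 54.8 ± 1.16 and 42.9 ± 14.1 normalized counts (log2 change −0.35, SE 0.18, edgeR adjusted p = 0.722). Without DTA-1 replicate 1 its log2 change was −0.65 and it was the 1 called gene of 6 tested in that list (0.744% of all genes were called, 0.161% lower). Cxcr5 and Il21, the receptor and cytokine that define follicular helper cells, were at 0 in all libraries.

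Genes of co-inhibitory receptors tied to Blimp-1 and c-Maf were detected in part. Of 10 genes 7 were tested, 2 higher and 5 lower, with 0 called and a median of −0.10. Pdcd1, which encodes PD-1, had 161 ± 4.45 normalized counts in control and 159 ± 5.64 after DTA-1 (SD, n = 3 each). Havcr2, which encodes TIM-3, had 10.8, 9.55 and 10.3 in control and 12.5, 14.6 and 16.0 in DTA-1. All 3 DTA-1 libraries were above all control libraries for Havcr2, as for 5.26% of the tested genes, and its log2 change was 0.49 (SE 0.15, edgeR adjusted p = 0.627). Cd160 and Pdpn, named after their values were seen, went the other way. Cd160 was lower in every DTA-1 library than in every control library, as for 6.03% of the tested genes (log2 change −0.87, SE 0.47, edgeR adjusted p = 0.738). Pdpn had 2 to 14 counts in control and 0 in DTA-1 and was not tested. Il10 had 24 to 31 counts per library and a log2 change of 0.22 (SE 0.44, edgeR adjusted p = 0.943).

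**Figure D5:**
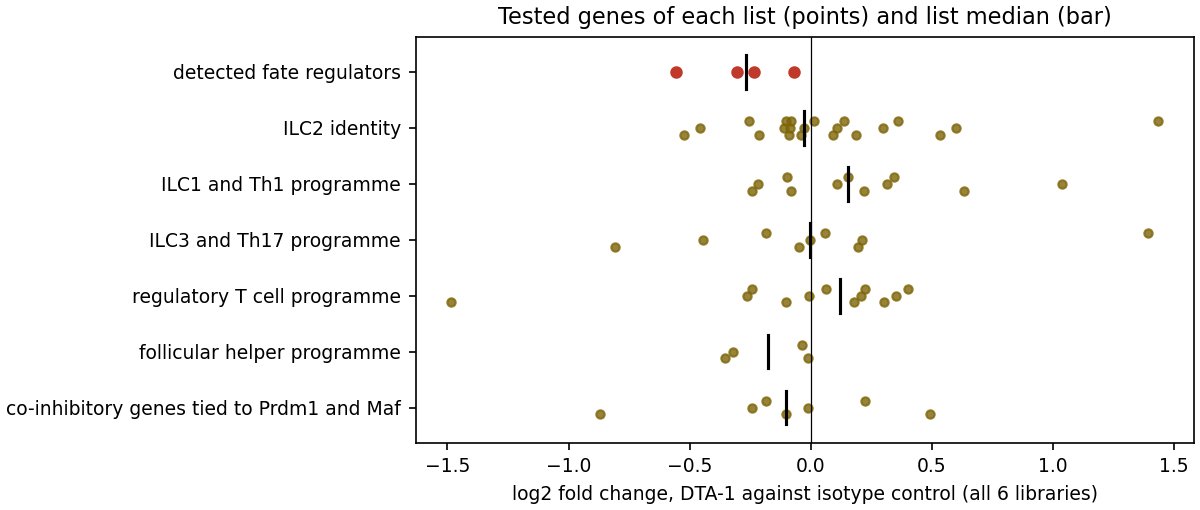
Log2 change of DTA-1 against control with all 6 libraries (x axis) for each tested gene (points) and the median (bar) of the detected fate regulators and of the 6 lists of each lymphocyte programme. The medians of these 6 lists lie between −0.18 and 0.15, that of the 4 fate regulators lies at −0.27, and none of the genes was called.

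In the ILC2 identity list 10 of 21 tested genes were higher and 11 lower with DTA-1, with 0 called and a median of −0.03. The eosinophil growth factor gene Il5 had 5325 ± 230 normalized counts in control and 8074 ± 2156 in DTA-1. For Il2ra, the high-affinity IL-2 receptor chain gene, these were 2111 ± 146 and 2598 ± 310, and for the epidermal growth factor family gene Areg 193 ± 0.446 and 279.5 ± 80.1 (SD, n = 3 each). Without DTA-1 replicate 1, Il5 and Areg were called as higher and Icos as lower, which is 3 of 21 tested against 0.744% of all genes. Icos, named after its values were seen, had a log2 change of −0.71 there and of −0.46 with all 6 libraries. With all 6 libraries 6 genes of the list were higher and 1 lower at an unadjusted p under 0.05 in edgeR, a level that 7.22% of all genes reached.

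Markers of other cell types ranged from 0 to levels above the median tested gene. Of 12 NK cell markers 10 were at 0 in all libraries, and Gzma and Prf1, granule genes, had 3 to 112 counts. The list summed to 1.36 to 3.88 normalized counts in control and 1.49 to 4.55 in DTA-1 (2 tested, both higher, 0 called, median 0.22). Among 10 B cell markers 3 were at 0 in all libraries, Ms4a1 and Pax5 among them, while Cd79b and Ighm, both of the B cell receptor, had 525 to 611 and 310 to 426 counts (sums 27.2 to 29.8 and 28.8 to 29.2, 3 tested, 2 higher and 1 lower, 0 called, median 0.05). Per kb, Cd79b had 11.96 and Ighm 5.41 normalized counts as means, above the median of 4.72 over the tested genes. The 12 myeloid markers, led by the macrophage genes Cd68 and Adgre1, summed to 6.84 to 13.1 and 9.06 to 12.8 (4 tested, 3 higher and 1 lower, 0 called, median 0.72). The 10 fibroblast markers summed to 3.56 to 9.92 in control and 0.288 to 4.17 in DTA-1, ranges that overlapped. All 5 tested genes were fitted lower and 0 were called by edgeR. An unadjusted p under 0.05 was reached by 3 of them, against 7.22% of all genes in either direction and 3.11% lower. Without DTA-1 replicate 1, 3 of 5 were called, all lower, against 0.744% of all genes in either direction and 0.161% lower. The median of that list was −3.73 as fitted, or −2.93 with genes at 0 taken at their bound. Fbn1 and Pdgfra, an extracellular matrix and a growth factor receptor gene, were at 0 in all DTA-1 libraries. With 3 counts per DTA-1 library as the bound, their control means were 7.61 and 10.5 times higher. These ratios leave out the control spread, and Pdgfra had 68, 14 and 25 counts in control. The collagen gene Col1a1 was also lower in every DTA-1 library (0, 9 and 3 counts) than in every control library (60, 56 and 68), as for 6.03% of the tested genes. The groups overlapped for Col3a1, with 3 to 102 counts in control and 0 to 92 in DTA-1. The part of fibroblast RNA in the Maf and Foxp3 values was not tested.

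The genes whose log2 normalized counts followed the 4 regulators most closely over the 6 libraries are given as a description, without a p. They were Dtnbp1 and Tcea1 for Maf (Pearson r = 0.997 and 0.995), Zfp507 and Cog4 for Prdm1 (0.984 and 0.983), Tex264 and 4930523C07Rik for Bcl6 (0.995 and 0.983), and Gm12184 and Adi1 for Foxp3 (0.983 and 0.976). They were the closest of 8722 or 8723 genes with a mean of at least 10 normalized counts, and 55 (Prdm1) to 284 (Maf) genes had an r above 0.9.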

How the data were processed

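RNA-seq libraries of sorted ILC2s, 3 per group, were each made from 10 ng of RNA. The submitters' processing notes name bcl2fastq 2.17.1.14, STAR 2.5.3a, Partek and the build mm10. The authors deposited expected counts per gene, estimated reads without normalization, of which 77.8% were whole. The annotation release and the use of strand are not given in the sources used here. Gene ends are the table's stop minus 1, and 96.0% of 49721 symbols shared with GENCODE release M21 then had the same start and end. All 6 columns were used, and the libraries held 30569351 to 35131329 counts.

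Counts were rounded, filtered with filterByExpr, scaled by TMM and tested with edgeR 4.0.16 (quasi-likelihood, robust, no covariate, Benjamini-Hochberg over all tested genes) in R 4.3.3. The procedure was tested on simulated data. Standard errors came from the F statistic. Alternatives were DESeq2 1.42.0 (size factors or Wald test), total counts, limma 3.58.1 (trend), other filters, a replicate block and each library left out. An exact permutation test of 3 against 3 libraries that counts changes in either direction cannot reach p = 0.05 and was not run.

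The genes and lists were chosen with earlier results of these data known. Named were the 9 genes, Gata3, Rora, Id2 and Il10, and in each list the 2 genes with the highest mean and up to 3 with the smallest p among those with an unadjusted p under 0.05. For each tested gene the 2 genes most correlated with it were named too. Some genes within this rule are not reported here.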

Additional observations from a re-analysis of the deposited data

How the results depend on the processing

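None of the 4 detected fate genes was differentially expressed under any of the 13 alternatives, and leaving out each library in turn gave 0 in every case. Ifng and Il17a, without a count, could not be tested under any setting. The log2 fold changes of Maf, Prdm1, Bcl6 and Foxp3 stayed below 0 under all 13. They ranged from −0.39 to −0.16 for Maf, −0.16 to −0.01 for Prdm1, −0.53 to −0.07 for Bcl6 and −0.74 to −0.31 for Foxp3. Over all genes the count of 0 became 25 with DESeq2's Wald test and 2 without the filter on low counts, and 0 to 111 with each library left out, where 111 was without DTA-1 replicate 1. With the replicate number as a block 1 gene was called and none of the 4. Same-numbered libraries did not deviate together (correlations of deviations −0.01, −0.00 and 0.02). These values gave no sign of pairing but cannot exclude it, and the sources used here do not describe any. Foxp3 and Bcl6 rest on 37 to 104 counts per library, which leaves intervals that include a 1.5-fold decrease. Changes in Tbx21, Eomes and Il22, and any expression of Ifng and Il17a under 3 counts per library, were not detectable at this depth.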

Other observations

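Receptor chains through which ILC2s can be driven toward other fates were present in part. These genes were chosen after their values were seen. Il12rb1 had 316 to 329 normalized counts in isotype control and 321 to 386 in DTA-1, while its partner chains Il12rb2, for IL-12, and Il23r, for IL-23, had 0 counts in all 6 libraries. The IL-18 receptor chain gene Il18rap had 90.6 to 101 normalized counts in isotype control and 92.7 to 110 in DTA-1, and its partner Il18r1 had 1.54 to 3.06 and 2.39 to 4.10. The log2 change with DTA-1 was 0.11 ± 0.08 (SE) for Il18rap and 0.35 ± 0.34 (SE) for Il18r1, and neither was called (edgeR adjusted p = 0.814 and 0.861).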
